A study of Mus musculus with 6 samples.

Results

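The miR-193 and miR-365 clusters were described here by 4 mature miRNAs of the 1976 mouse miRNAs in the deposited table: mmu-miR-193a-5p, mmu-miR-193a-3p, mmu-miR-193b-3p and mmu-miR-365-3p, written below without the species prefix. They were taken by name, but the set had been chosen from the same 6 libraries, by its arm balance and its levels in the comparison of the groups. Values in that comparison are therefore a description, with no test. The small RNA came from secreted vesicles, called exosomes in the labels, of primary hepatocytes, the main liver cells, of wild-type C57BL/6J mice. In the control group (3 libraries) the cells had palmitic acid at 0 µM, and in the treated group (3 libraries) at 600 µM. Palmitic acid, a saturated fatty acid, makes cultured hepatocytes store lipid. No other allele or agent is named for either group. Whether replicate libraries stem from different mice or cultures is not stated, so the p-values below cover spread among these libraries alone, and that spread could be technical.

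Each miRNA gene is transcribed into a hairpin whose stem is cut to a duplex of a 5p arm and a 3p arm. As a rule 1 arm is kept by an Argonaute protein as the guide and the other is degraded, so the balance of the arms says which strand was present as mature RNA. The mouse genome holds the family as a pair of clusters, each with a miR-193 and a miR-365 hairpin. The miR-193b and miR-365 cluster is transcribed as a unit and is known for its high level in brown fat, where it has been linked to the formation of brown adipocytes and to the repression of muscle genes. miR-193a-3p is known as a repressor of growth-promoting genes in several tumours.

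The mature sequences below, from RefSeq on GRCm38.p6, show which arms share a target-recognition seed. Bases 2 to 8, the seed, are in capitals. All 4 members and the 3 remaining arms of the same hairpins were matched by name.
miR-193a-5p: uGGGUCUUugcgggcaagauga
miR-193a-3p: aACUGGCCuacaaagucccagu
miR-193b-5p: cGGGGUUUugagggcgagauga
miR-193b-3p: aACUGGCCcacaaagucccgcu
miR-365-1-5p: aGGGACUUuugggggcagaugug
miR-365-2-5p: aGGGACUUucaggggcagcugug
miR-365-3p: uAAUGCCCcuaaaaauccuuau

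miR-193a-3p and miR-193b-3p have the same seed, ACUGGCC, and the same base at 19 of 22 positions. Counted from the 5′ end, with the base of miR-193a-3p first, they differ by U9C, A20G and G21C. How reads that match both were counted is not stated, so their split between these arms is uncertain. No other miRNA of the table that could be matched to RefSeq (1677 of 1976) has that seed, and none shares the seed of miR-193a-5p or of miR-365-3p. The seed of miR-193a-5p is not that of miR-193b-5p, from which it differs by U1C, U5G, C6U, C11A and A16G. The sequence of miR-365-3p is the same at both loci, so its reads cannot be assigned to a cluster. The 5p arms of miR-365 do tell the loci apart: miR-365-1-5p and miR-365-2-5p differ by U10C, G11A and A19C.

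Mir193a lies at chr11:79711969-79712034 and Mir365-2 at chr11:79726400-79726511, both on the plus strand, with 14365 bases between them. GENCODE M21 has no other gene over either hairpin. Mir193b lies at chr16:13449523-13449601 and Mir365-1 at chr16:13453840-13453926, again on the plus strand, with 4238 bases between them. Both lie within Gm15738, an antisense gene on the minus strand, and in none of its exons. The hairpins of the chromosome 11 cluster are printed because both arms of miR-193a and the locus-specific miR-365-2-5p come from them, with the mature arms in capitals.
Mir193a: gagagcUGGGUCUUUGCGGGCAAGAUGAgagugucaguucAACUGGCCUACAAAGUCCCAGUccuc
Mir365-2: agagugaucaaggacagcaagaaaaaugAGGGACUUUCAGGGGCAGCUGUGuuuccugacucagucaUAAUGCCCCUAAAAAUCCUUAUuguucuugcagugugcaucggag

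The deposited values are log2(adjusted count + 1), where the adjusted count is a read number brought to a common library size. Reads were recovered from them: 95242 to 657645 per control library and 613463 to 799122 per palmitic acid library. miR-122-5p, the main hepatocyte miRNA, and miR-122b-3p, from an overlapping hairpin, took 69.2% to 87.7% of control reads and 11.7% to 15.3% of palmitic acid reads. This left 29349 to 80774 reads for all other miRNAs in a control library and 534419 to 676889 in a palmitic acid library. Levels are given below in RPM (reads-per-million) of these other reads, called other-read RPM, and in RPM of all reads where the size or direction differs. Of the 6 listed hepatocyte markers, all 5 that the table holds had reads. Markers of other cell types had reads too, so this does not test the label. Blood and immune markers summed to 12.4 to 818 other-read RPM in controls against 59.9 to 235 with palmitic acid. Epithelial and biliary markers summed to 12.4 to 988 against 13.1 to 39.9. Both lists overlapped between groups in RPM of all reads too. Of 3 muscle markers, summing to 780 to 7666 other-read RPM in controls and 29.7 to 59.1 with palmitic acid, and likewise without overlap by all reads, miR-133a-3p was at 0 in all libraries and miR-1a-3p had 4 reads in all. Of 3 erythroid markers, summing to 309.5 to 18502 against 28.1 to 181.4, miR-144-3p was at 0 throughout, and in RPM of all reads the ranges overlapped (38.0 to 5701 against 24.5 to 160.1). Endothelial markers summed to 7044 to 16405 other-read RPM in controls against 4419 to 5615, but to 865 to 3420 against 3743 to 4957 in RPM of all reads, which turns their direction. Stellate cell and fibroblast markers summed to 1275 to 7019 against 556.2 to 753 other-read RPM, and overlapped in RPM of all reads (156.6 to 2163 against 491 to 638). The part of these differences in the results below was not tested. In bulk vesicle RNA, fewer vesicles that carry a miRNA and less of it per vesicle cannot be told apart, nor can fewer cells of a type and less RNA per cell.

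miR-193a-3p had few reads in the control libraries and was present in all palmitic acid libraries. Control replicates 1, 2 and 3 held 0, 3 and 0 reads, and palmitic acid replicates 1, 2 and 3 held 220, 324 and 104. On the deposited log2 scale controls stood at 0.45, 3.25 and 0.27, and palmitic acid libraries at 6.76, 6.84 and 5.97. The groups did not overlap, and control replicate 2 alone among the controls had reads. In other-read RPM the level was 12.4 ± 21.4 (SD, n = 3) in controls against 334 ± 144 (SD, n = 3) with palmitic acid. The 95% exact upper limits in control replicates 1, 2 and 3 were 125.7, 108.5 and 70.1, so low levels there cannot be told from absence. The means of the log2 values differed by 5.20 (SE 0.95), or by 3.26 beyond the median tested miRNA, which itself stood 1.94 higher with palmitic acid. The ratio of the pooled levels in other-read RPM was 18.7 (95% exact interval 6.36 to 90.7). In RPM of all reads it was 99.9 (34.0 to 485). All intervals here describe counting error alone and leave out the spread between libraries. They may be too narrow even for counting error, because PCR copies are not independent molecules.

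miR-365-3p, the partner of both miR-193 hairpins, had no control read. It had 104, 120 and 125 reads in palmitic acid replicates 1, 2 and 3. Its deposited log2 values with palmitic acid were 5.70, 5.42 and 6.24. The control values, 0.44, 0.37 and 0.26, are what the adjustment gives to 0 reads. The difference of their means, 5.43 (SE 0.41), thus depends on the value given to 0 reads and is no bound. Set against a floor of 3 reads over the whole control group, miR-365-3p was at least 21.4-fold higher in adjusted counts and at least 10.05-fold higher in other-read RPM. In RPM of all reads it was at least 53.8-fold higher. At the pooled palmitic acid share of other reads, the controls would have held 30.1 reads of it, and at the share of all reads 161.3, while they held 0. For miR-193a-3p the same reckoning gave 56.0 and 299.6 reads, and 3 were found.

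miR-193b-3p, which carries the seed of miR-193a-3p, was the scarcest 3p arm. It had no control read, and 30, 27 and 10 reads in palmitic acid replicates 1, 2 and 3. On the deposited log2 scale the controls stood at 0.38, 0.32 and 0.23 and the palmitic acid libraries at 3.98, 3.39 and 2.78. The difference of 3.08 between means again rests on what stands for 0 reads. In other-read RPM it stood at 34.4 ± 13.7 with palmitic acid (SD, n = 3). Against the floor of 3 reads over the control group it was at least 3.87-fold higher in adjusted counts, at least 1.93-fold higher in other-read RPM and at least 10.3-fold higher in RPM of all reads. A control library would show 3 reads only at 37.1 to 102.2 other-read RPM, while palmitic acid libraries held 18.7 to 44.3. At the palmitic acid share of other reads the 3 controls together would have held 5.79 reads, and at the share of all reads 31.0.

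miR-193a-5p did not follow its 3p arm. Control replicates 1, 2 and 3 held 0, 14 and 17 reads of it, and the palmitic acid replicates 4, 26 and 14. The deposited values were 0.41, 5.24 and 5.21 against 1.50, 3.32 and 3.21, so the groups overlapped through control replicate 1, which had no read. The means differed by -0.94, with a control SD of 2.78. On log2(RPM + 1) the difference was -0.97 by other reads and 0.57 by all reads, so its sign depends on the scale. Without control replicate 1 it was -2.55, without control replicate 2 -0.13, without control replicate 3 -0.15 and without palmitic acid replicate 1 -0.35. Pooled, controls held 31 reads and palmitic acid libraries 44. In other-read RPM this was 8.16 times more in controls (95% exact interval 4.98 to 13.2), and in RPM of all reads 1.52 times more (0.93 to 2.47).

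**Figure D1:**
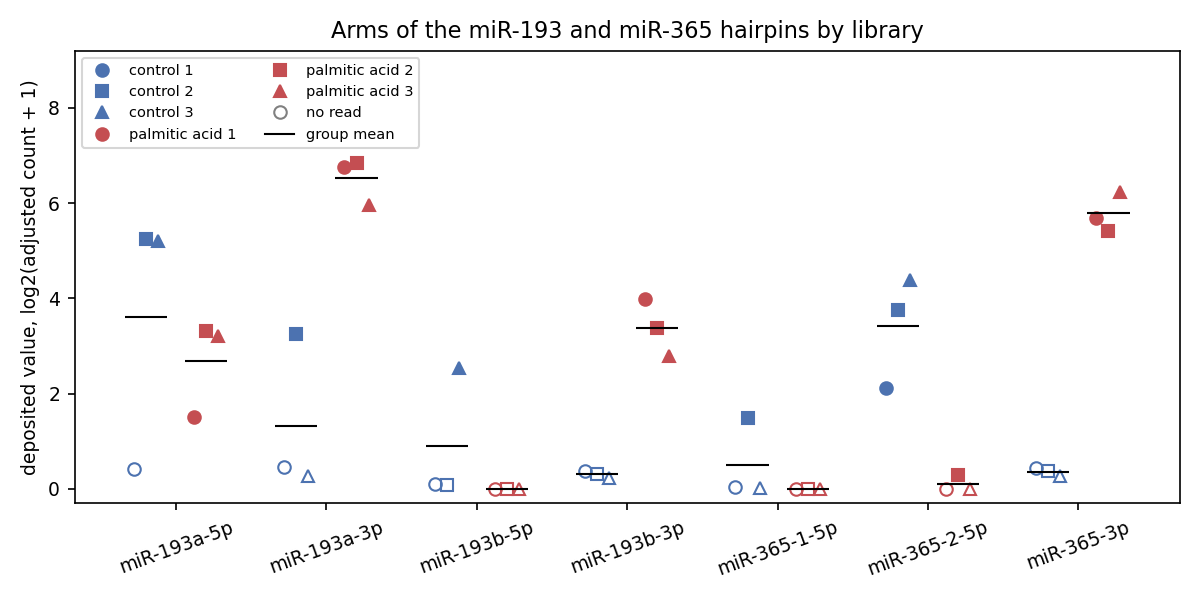
Deposited value, log2(adjusted count + 1), of the 7 arms of the miR-193 and miR-365 hairpins (x axis) in 3 control libraries (blue) and 3 palmitic acid libraries (red). Open symbols are libraries with no recovered read, and lines are group means. The 3p arms lie higher in the palmitic acid libraries, while miR-193a-5p overlaps between groups and miR-365-2-5p lies higher in controls.

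Of the 4 members, 3 had all palmitic acid values above all control values (background: 20.2% of the 950 miRNAs with any read), and 2 had no control read and a read in every palmitic acid library (background: 11.9%). miR-193a-3p and miR-365-3p passed the filter on low values, a minimum adjusted count of 10 reached by 3 or more libraries. They did so through the palmitic acid libraries alone and so had to differ. Both were called higher by limma, where 42.0% of the 181 tested miRNAs were (76 of 181, with 26 lower, or 14.4%). miR-193a-5p and miR-193b-3p did not pass the filter. Nothing is read from these counts, because the members were chosen with this comparison in view.

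The arms of mir-193a were unlike in balance between the groups. The share of 5p reads among the reads of both arms uses only the hairpin's own reads, so it needs no library scale. Control replicate 2 had 14 5p reads of 17, or 82.4% (56.6 to 96.2, the 95% exact Clopper-Pearson interval), and control replicate 3 had 17 of 17 (80.5% to 100%). Control replicate 1 had no read of either arm and gives no share. In palmitic acid replicate 1 the 5p arm held 4 of 224 reads, or 1.79% (0.49 to 4.51). In replicate 2 it held 26 of 350, or 7.43% (4.91 to 10.7), and in replicate 3 it held 14 of 118, or 11.9% (6.64 to 19.1). The intervals of the 2 controls with reads do not touch those of the 3 palmitic acid libraries. They show a 5p majority in both of those controls and a 3p majority in each palmitic acid library. Within the palmitic acid group the interval of replicate 1 lies below those of replicates 2 and 3.

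Pooled over libraries, the 5p share of mir-193a was 31 of 34 reads, or 91.2% (76.3 to 98.1), in controls and 44 of 692, or 6.36% (4.66 to 8.44), with palmitic acid. As a log2 ratio of 5p to 3p reads, with 0.5 added to each, the libraries stood at 0 (no read), 2.05 and 5.13 in controls and at -5.61, -3.61 and -2.85 with palmitic acid. The difference of group means was -6.42, from 2.39 ± 2.58 to -4.03 ± 1.43 (SD, n = 3 each), and without control replicate 1 it was -7.62. The 34 control reads set the precision of this comparison.

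The sister hairpins had their reads on the same sides, with fewer of them. For mir-193b the 3p arm held all 67 reads of the palmitic acid group (5p share 0% to 5.36%). The 5p arm held all 3 reads of the control group, which came from control replicate 3. The interval of that control share, 29.2% to 100%, does not settle which arm held the majority. For miR-365, miR-365-2-5p was read 1, 5 and 10 times in control replicates 1, 2 and 3 but 0, 1 and 0 times in the palmitic acid libraries, the reverse of miR-365-3p. miR-365-1-5p, from the chromosome 16 locus, had a single read, in control replicate 2. With the 5p arms of both loci together, 17 of 17 control reads of miR-365 were 5p (80.5% to 100%). With palmitic acid 1 of 350 was, or 0.29% (0.0072 to 1.58). The deposited values of miR-365-2-5p were 2.12, 3.76 and 4.39 for the controls against 0, 0.28 and 0 for palmitic acid, although 1 read each was found in control replicate 1 and palmitic acid replicate 2. Pooled, it was 185.2 times more frequent in controls in other-read RPM (exact interval 28.8 to 7767) and 34.6 times in RPM of all reads (5.38 to 1451). The wide intervals follow from the single read of the palmitic acid group. As a log2 ratio with 0.5 added, the arm balance of miR-365-2-5p to miR-365-3p stood at 3.15 ± 1.43 (SD, n = 3) in controls against -7.34 ± 0.88 (SD, n = 3) with palmitic acid, a difference of -10.5. The size of this difference depends on the added 0.5. miR-365-3p had no control read, and miR-365-2-5p had none in palmitic acid replicates 1 and 3. The pooled 5p share of miR-365 differed by -99.7 percentage points.

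**Figure D2:**
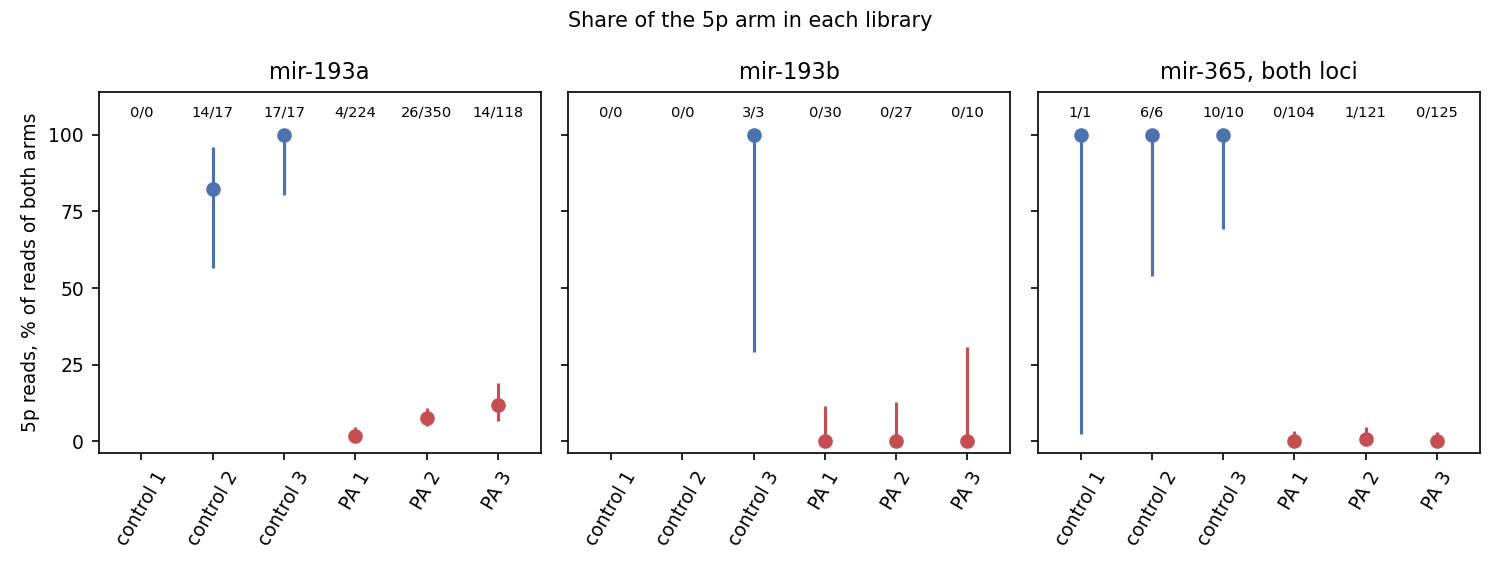
Share of 5p reads (%, y axis) among the reads of both arms of mir-193a, mir-193b and miR-365 (5p arms of both loci together) in each library, with 95% Clopper-Pearson intervals. Numbers above are 5p reads over reads of both arms. Points stand at 82.4% and 100% in the controls with mir-193a reads and between 1.79% and 11.9% with palmitic acid.

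The base composition of the arms is part of the description. GC content was 54.5% in miR-193a-5p and 50% in miR-193a-3p, and 59.1% in each arm of miR-193b. It was 60.9% in miR-365-2-5p against 31.8% in miR-365-3p. The arms that held the control reads thus had more GC than their partners in mir-193a and mir-365, and the same in mir-193b. The part of GC content in the arm balance was not tested.

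Other hairpins were measured the same way where both arms carry the same name. This leaves out miR-365, whose 5p arms are named by locus and whose 3p arm is not, and which had a lower value than mir-193a. Of the 24 hairpins so paired with a mean adjusted count of at least 10 in both arms, mir-193a came first from the low end at -6.42. miR-122 followed at -4.59 and miR-192 at -2.95, both with nearly all reads on the 5p arm in each group. The median change of the 24 was 2.05, with 16 above 0 and 8 below. Of the 101 hairpins so paired with at least 10 reads in each group, 4 went from a 5p majority in controls to a 3p majority with palmitic acid (3.96%), mir-193a among them, and 10 went the other way. The others of the 4 were miR-142a, miR-434 and miR-203b, and miR-365 would join them if its 5p arms were pooled. Few reads carry miR-142a (11 in controls, 14 with palmitic acid) and miR-434 (10 and 19). The 5p share of miR-434 was 47.4% with palmitic acid, and its 10 control reads were all from control replicate 1. miR-203b had a 5p share of 81.4% in controls and 38.7% with palmitic acid. mir-193a was picked for this pattern, so its place in the order is a description.

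**Figure D3:**
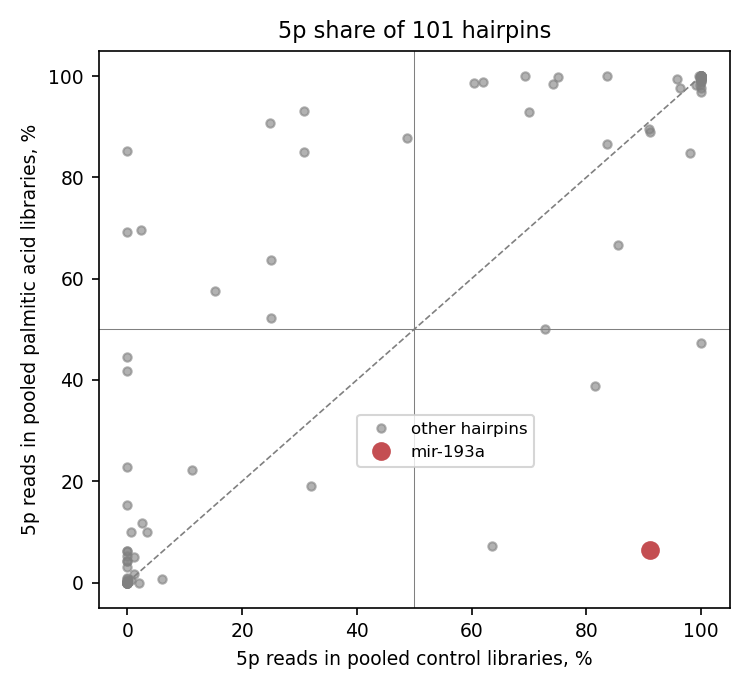
Share of 5p reads (%) in the pooled control libraries (x axis) and the pooled palmitic acid libraries (y axis) for 101 hairpins with arms of the same name and at least 10 reads in each group, which leaves out miR-365. Each point is a hairpin, the dashed line marks equal shares and the thin lines mark equal arms. mir-193a (red) lies at 91.2% and 6.36%.

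Within the palmitic acid group the ratios of the 3p members to each other varied between libraries. No counting interval was computed for these ratios. Controls were left out of these ratios because at least 1 member of each pair had no read there. miR-193b-3p held 0.136, 0.0833 and 0.0962 reads per read of miR-193a-3p in replicates 1, 2 and 3, a log2 difference of -3.14 ± 0.34 (SD, n = 3). miR-365-3p held 0.473, 0.370 and 1.20 reads per read of miR-193a-3p, with a log2 difference of -0.74 ± 0.89 that spans 0. Against miR-193b-3p it held 3.47, 4.44 and 12.5 reads per read, or 2.40 ± 0.92. Without replicate 3 the SDs of these differences were 0.47, 0.25 and 0.23 in the same order, so which ratio was steadiest rests on that library.

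Palmitic acid replicate 3 set the ratios with miR-365-3p apart. In other-read RPM, miR-193a-3p stood at 325.0 (283 to 371, Clopper-Pearson), 482 (431 to 537) and 194.6 (159.0 to 236) in replicates 1, 2 and 3. miR-365-3p stood at 153.6 (125.5 to 186), 178.4 (148.0 to 213) and 234 (194.7 to 279). Replicate 3 was thus the lowest library for miR-193a-3p, and for miR-193b-3p at 18.7 (8.97 to 34.4), and the highest for miR-365-3p. Without it the log2 difference of miR-365-3p to miR-193a-3p was -1.24, against -0.74 with it. In the order of mean levels with palmitic acid, miR-193a-3p (334) and miR-365-3p (189) overlapped in their library values. miR-193b-3p (34.4 ± 13.7) and miR-193a-5p (23.6 ± 16.5) did as well, and every value of the former pair lay above every value of the latter.

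**Figure D4:**
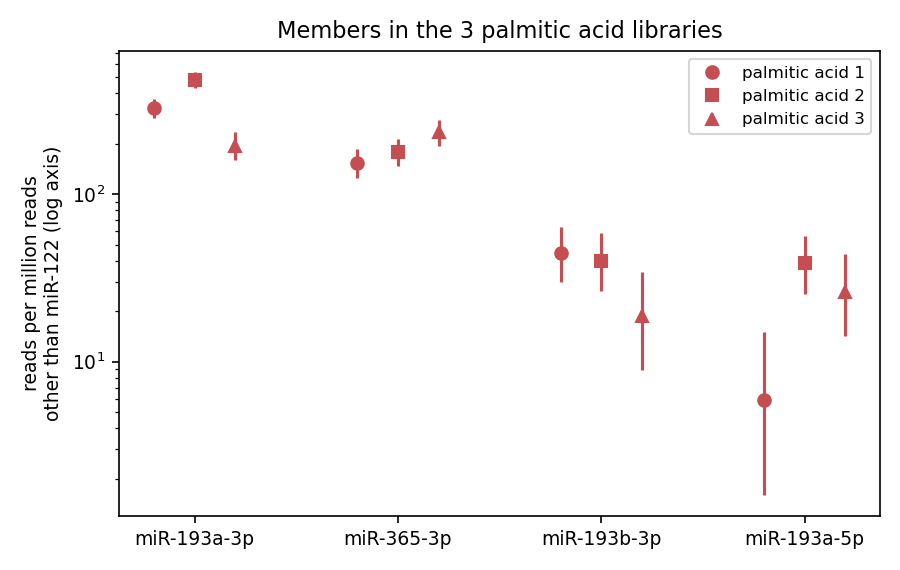
Level of the 4 members in the 3 palmitic acid libraries, in RPM of the reads other than miR-122-5p and miR-122b-3p (log axis), with 95% Clopper-Pearson intervals. Replicate 3 (triangles) is lowest for miR-193a-3p at 194.6 and for miR-193b-3p at 18.7, and highest for miR-365-3p at 234.

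The miRNAs with the most similar profile were found by the root mean square distance between log2 profiles over the 6 libraries, each centred on its own mean. Closest to miR-193a-3p were miR-101c (distance 0.36), miR-106b-5p of the growth-linked miR-106b to miR-25 cluster (0.45) and miR-6240 (0.49). These had 6, 1 and 52 control reads and 960, 379 and 4660 palmitic acid reads. Both miR-193a-3p and miR-106b-5p had no read in control replicates 1 and 3, so their distance depends partly on what stands for 0 reads. Closest to miR-365-3p were miR-192-3p (0.38), miR-3066-5p (0.49) and miR-7b-5p (0.52), of which miR-192-3p and miR-3066-5p, like miR-365-3p, had no control read. Their distances to miR-365-3p therefore depend partly on what stands for 0 reads. miR-7b-5p had 42 control reads and 12847 with palmitic acid. miR-192-3p had 262 palmitic acid reads and miR-3066-5p had 219.

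Other miRNAs known from brown and beige fat, the tissue in which miR-193b and miR-365 are best known, were taken as a list of 20. Of its 16 tested members 10 rose, 0 fell and 6 were not called, where 42.0% of all tested miRNAs rose and 14.4% fell. Among the 10, miR-34a-5p, miR-106b-5p and miR-32-5p passed the filter through the palmitic acid libraries alone and so had to differ. The count of 10 is thus partly set by the filter. The list was not sorted by whether a miRNA promotes or represses fat formation, so the count has no direction in that sense. The median log2 difference of the 16 was 2.71, beside 1.94 over all 181 tested miRNAs. Counting miRNAs without a control read at their lower bound, the medians were 2.71 and 1.77. The most abundant were miR-26a-5p, miR-182-5p and miR-378a-3p, the last encoded within the gene of the metabolic coactivator PGC-1β. miR-26a-5p rose by 2.33 (SE 0.45, limma adjusted p = 0.00262), but did not pass on log2(RPM + 1) by other reads (1.18). miR-182-5p rose by 2.79 (SE 0.45, limma adjusted p = 0.00115) and miR-378a-3p by 4.45 (SE 0.75, limma adjusted p = 0.00139).

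Muscle miRNAs were listed because the miR-193b and miR-365 cluster is known to repress muscle genes. Of 8, 2 were tested and both fell, where 14.4% of all tested miRNAs did. Their median of -4.63, beside 1.94 over all, rests on these 2 alone and does not describe the list. Of the 8, 5 had no read in any control library and 6 had none in any palmitic acid library. miR-206-3p, best known from skeletal muscle, fell by 5.06 (SE 0.80, limma adjusted p = 0.00105), with 542 control reads and 77 with palmitic acid. miR-486a-5p, enriched in muscle and red blood cells, fell by 4.20 (SE 0.95, limma adjusted p = 0.00557), with 87 reads against 13. It passed the filter through the control libraries alone and so had to differ, and nothing is read from its call. That call was lost on log2(RPM + 1) by all reads (-3.58) and with no filter on low values.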

How the data were processed

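Per the labels' protocols, Trizol served to extract RNA and the NEBNext Multiplex small RNA kit to build libraries. Per the submitters' processing notes, the tools were Bowtie2 and bedtools, on GRCm38 (mm10). The sources used here do not give versions, roles, the counting of reads or the length of treatment. The deposited table is named as raw counts but holds log2 values (1976 miRNAs, 6 libraries). The values fit log2(adjusted count + 1), where reads were moved to the same quantile of a negative binomial distribution (dispersion 1.387) at one library size. No label states this step. Means fitted per miRNA were not those of the 6 libraries, so other libraries, not analysed here, may have entered it. Inverting it gave whole reads for 99.75% of 4387 values, to within 0.0015 in log2, with read numbers spaced by 0.02 or more. The library sizes, the dispersion and the means of low miRNAs were fitted to bring values to whole reads. That share is thus partly set by the fit. In controls 1 read had a log2 value of 1.41 to 1.59, and with palmitic acid 0.43 to 0.71, so a single read moves a control value more.

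Groups were compared by limma 3.58.1 under R 4.3.3 (group term, trended variance, two-sided, Benjamini-Hochberg adjustment at 0.05) on the deposited log2 values of 181 miRNAs, those whose adjusted count reached 10 in 3 or more libraries. The scripts were tested on simulated data. Intervals are exact at 95%, computed with SciPy 1.17.1. Alternatives were another filter or none, 4 other scales, another pseudocount, no trend, a replicate block and each library left out. The named miRNAs were the members, the other arms of their hairpins, the 3 nearest profiles per tested member, and the 3 most abundant tested miRNAs of the fat and muscle lists. Members, lists and rules were chosen with earlier results of these data known.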

Additional observations from a re-analysis of the deposited data

How the results depend on the processing

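Over 15 alternatives the log2 difference of miR-193a-3p ran from 3.73 to 7.26 and that of miR-365-3p from 3.49 to 7.55. Both were chosen from this comparison, so nothing is read from their calls. The difference of miR-193a-5p ran from -2.55 to 0.57 and was above 0 only on log2(RPM + 1) by all reads. That of miR-193b-3p, at 3.08, moved to 4.86 on log2(RPM + 1) by all reads, to 5.06 on that scale by reads other than miR-122-5p and miR-122b-3p, to 2.29 with libraries centred on the median tested miRNA and to 1.48 with a pseudocount of 5. These settings change the value that stands for 0 reads or the scale. With the filter at 5 or none, miR-193b-3p entered the fit and was called higher, from which nothing is read either. The mir-193a arm balance, -6.42, lay between -7.62 and -5.05 with a library left out, at -5.98 with 1 added to reads and at -6.54 from adjusted counts. Among 42 hairpins with arms of the same name and a mean of at least 5, it was first from the low end. miR-365, not paired by name, would lie below it there.

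Of all tested miRNAs, 76 were higher and 26 lower. The lower count was 60 with no filter (88 higher), 8 in RPM of all reads (89 higher), 41 in RPM of these other reads (57 higher) and 40 with centring (65 higher). The cause was not tested. With a library left out, 63 to 85 were higher and 20 to 32 lower. A replicate block gave 83 higher and 28 lower. Deviations of libraries with the same number correlated at 0.21, 0.15 and 0.04, and those of libraries with different numbers at -0.18 to 0.06. These values do not decide whether the numbers pair the libraries. The main fit did not pair them. The 162729 control reads other than miR-122-5p and miR-122b-3p limit the precision.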
